A study of Mus musculus with 4 samples.

Results

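Genes of glucose use and of the response to low oxygen were described in mouse neural cells treated with olaparib, a drug that blocks PARP1 and PARP2, enzymes that mark DNA breaks for repair. The genes were taken from a fixed list in 6 roles: glucose entry, glycolytic enzymes, lactate handling, the pentose phosphate branch, the hypoxia-inducible factors with their prolyl hydroxylases, and the targets of these factors. Of the 40 genes listed, 36 had a probe set that named them alone, out of 19937 genes with such a probe set in all. Gapdh was named only together with other genes, Gpi1, Eno1 and G6pdx had no listed probe set, and the member Ero1l appeared under its current symbol Ero1a. Each gene was read from whichever of its probe sets was brightest on average across the 4 arrays, and 34 of the 36 lay above the signal floor for testing, a log2 value of 6.42.

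Glycolysis splits glucose into pyruvate in the cytosol. Transporters let glucose in, hexokinases trap it as glucose 6-phosphate, phosphofructokinase commits it to the pathway, and lactate dehydrogenase turns pyruvate into lactate when it is not burned in mitochondria. The pentose phosphate branch leaves at glucose 6-phosphate and makes NADPH and ribose. The hypoxia-inducible factors (HIF) raise many of these genes when oxygen is short, while prolyl hydroxylases mark HIF for destruction when oxygen is present. Neural stem cells are known for high glycolysis, which declines as they become neurons.

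The cells were primary neurospheres from the lateral ventricle walls of C57BL/6 mice aged 9 to 12 weeks, grown with 3.5 mM glucose, FGF-2 and EGF. Every sample carried non-targeting siRNAs and the pCLIG-Pax6 virus, which delivers a transcription factor that drives neuronal differentiation, and was differentiated on laminin for 10 h after growth factor withdrawal. The DMSO group (2 arrays) was kept in 0.01% DMSO, and the olaparib group (2 arrays) in 100 nM olaparib with the same solvent. How many mice were pooled and what share of the cells carried the virus are not stated in the labels, and no group without Pax6 was analysed here. In bulk RNA, fewer cells of a type and less RNA per cell cannot be told apart.

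The array medians lay between 6.60 and 6.68 on the log2 scale. All 8 neural stem and progenitor markers lay above the floor, at 8.51 to 12.70, and so did 5 of 6 neuroblast markers. The endothelial genes Pecam1, Cdh5 and Cldn5 had DMSO means of 6.37, 6.34 and 6.46, within the 6.08 to 6.74 spanned by 9 genes of unrelated tissues, which stand for background here. In limma, 868 of 13956 genes (6.22%) passed an adjusted p of 0.05.

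Core letters of the HIF binding site, ACGTG and GCGTG, were searched on both strands for 36 members. The window was the 250 bases before the start site, at the first start listed for each gene (RefSeq, GRCm38.p6). These 36 include Gapdh, Gpi1, Eno1 and G6pdx, and also Car9 and P4ha2 from under the floor, none of which were tested here. Slc2a3, Epas1, Bnip3l and Ndrg1 had no promoter in the set searched. The 6 promoters shown are those of Slc2a1, Pfkfb2, Pgd and Vegfa, whose transcripts changed, and of Ldha and Bnip3, textbook HIF targets that did not pass. Capitals mark the matches.
Slc2a1: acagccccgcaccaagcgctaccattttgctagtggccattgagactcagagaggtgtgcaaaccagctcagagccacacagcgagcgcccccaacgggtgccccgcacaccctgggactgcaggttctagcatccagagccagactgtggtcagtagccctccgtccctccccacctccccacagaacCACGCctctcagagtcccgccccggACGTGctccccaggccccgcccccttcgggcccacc
Pfkfb2: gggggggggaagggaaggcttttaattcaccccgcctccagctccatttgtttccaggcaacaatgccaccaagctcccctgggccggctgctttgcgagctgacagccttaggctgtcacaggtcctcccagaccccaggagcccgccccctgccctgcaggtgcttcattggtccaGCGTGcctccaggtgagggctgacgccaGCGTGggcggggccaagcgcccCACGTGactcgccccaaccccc
Pgd: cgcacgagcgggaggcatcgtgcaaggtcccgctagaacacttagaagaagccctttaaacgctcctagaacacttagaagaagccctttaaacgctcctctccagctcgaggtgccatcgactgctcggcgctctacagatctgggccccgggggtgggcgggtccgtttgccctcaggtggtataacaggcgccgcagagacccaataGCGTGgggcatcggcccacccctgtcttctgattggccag
Vegfa: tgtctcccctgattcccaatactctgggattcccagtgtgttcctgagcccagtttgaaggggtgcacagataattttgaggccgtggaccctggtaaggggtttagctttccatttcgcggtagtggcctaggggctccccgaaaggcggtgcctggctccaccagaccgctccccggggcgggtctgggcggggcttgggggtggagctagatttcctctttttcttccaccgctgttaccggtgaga
Ldha: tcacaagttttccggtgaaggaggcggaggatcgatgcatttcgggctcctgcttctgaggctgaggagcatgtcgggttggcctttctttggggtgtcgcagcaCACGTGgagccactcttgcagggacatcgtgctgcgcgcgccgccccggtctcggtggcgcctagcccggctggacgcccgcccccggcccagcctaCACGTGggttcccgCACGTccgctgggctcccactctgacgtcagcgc
Bnip3: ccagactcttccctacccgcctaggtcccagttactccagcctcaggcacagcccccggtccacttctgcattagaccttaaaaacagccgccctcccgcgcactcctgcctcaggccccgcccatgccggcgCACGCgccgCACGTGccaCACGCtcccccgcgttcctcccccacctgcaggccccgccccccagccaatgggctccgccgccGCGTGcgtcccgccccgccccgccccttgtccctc
They lie at chr4:119108495-119108744 on the plus strand (Slc2a1), chr1:130715822-130716071 on the minus strand (Pfkfb2), chr4:149166706-149166955 on the minus strand (Pgd), chr17:46032378-46032627 on the minus strand (Vegfa), chr7:46845554-46845803 on the plus strand (Ldha) and chr7:138909507-138909756 on the minus strand (Bnip3).

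The window of Slc2a1 held 1 ACGTG, starting 36 bases before the start site, and 1 GCGTG on the other strand. Ldha held 5 matches and Bnip3 held 5, whereas the Vegfa window held 0 of either word. The palindrome CACGTG, the letters of an E-box, reads as ACGTG on both strands, so each copy counts as 2 matches. Of the 6 windows shown it occurred in those of Pfkfb2, Ldha and Bnip3. It occurred in 6 of the 36 member promoters (16.7%), against 6.05% of all promoters and 8.18% of those of genes tested. Of the 36 member promoters 52.8% held ACGTG, against 16.6% of 27025 gene promoters in the table and 21.1% of the promoters of genes tested. GCGTG stood in 55.6% of member promoters, against 28.2% of all and 43.8% of those of genes tested, and either word in 80.6%, against 38.6% and 54.7%. The members were chosen as metabolic and hypoxia genes, so these shares describe the list.

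The differences had medians near 0 with and without these letters. The 17 tested members with ACGTG had a median difference of -0.015 on the log2 scale (olaparib minus DMSO), and the 13 without it a median of 0.0022. Among all genes tested the medians were -0.0012 with ACGTG and 0.0027 without. For GCGTG the member medians were -0.015 with it and 0.039 without, and for either word -0.014 and 0.044, the last over 6 members. A match is no evidence of a working site, and distal elements lie outside these windows.

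Olaparib and DMSO samples differed past the threshold in 14.7% of the members tested, against 6.22% of all genes tested. The members were chosen with earlier results of these data known, so the higher share is no test of these roles. In limma, 2 of the 34 members tested rose (Vegfa and Hk1) and 3 fell (Slc2a1, Pgd and Pfkfb2), while 29 did not pass. Hk1 was read here from the brighter of its 2 single-gene probe sets, and whether that set reports Hk1 transcripts was not tested. Among all genes tested, 2.84% rose and 3.37% fell. The median change was -0.02 over the 34 members and 0.0013 over all genes tested. At an unadjusted p under 0.05 there were 6 members, where 19.1% of all genes tested lay. The groups of arrays did not overlap in 15 of the 34, against 47.1% of all genes tested.

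**Figure D1:**
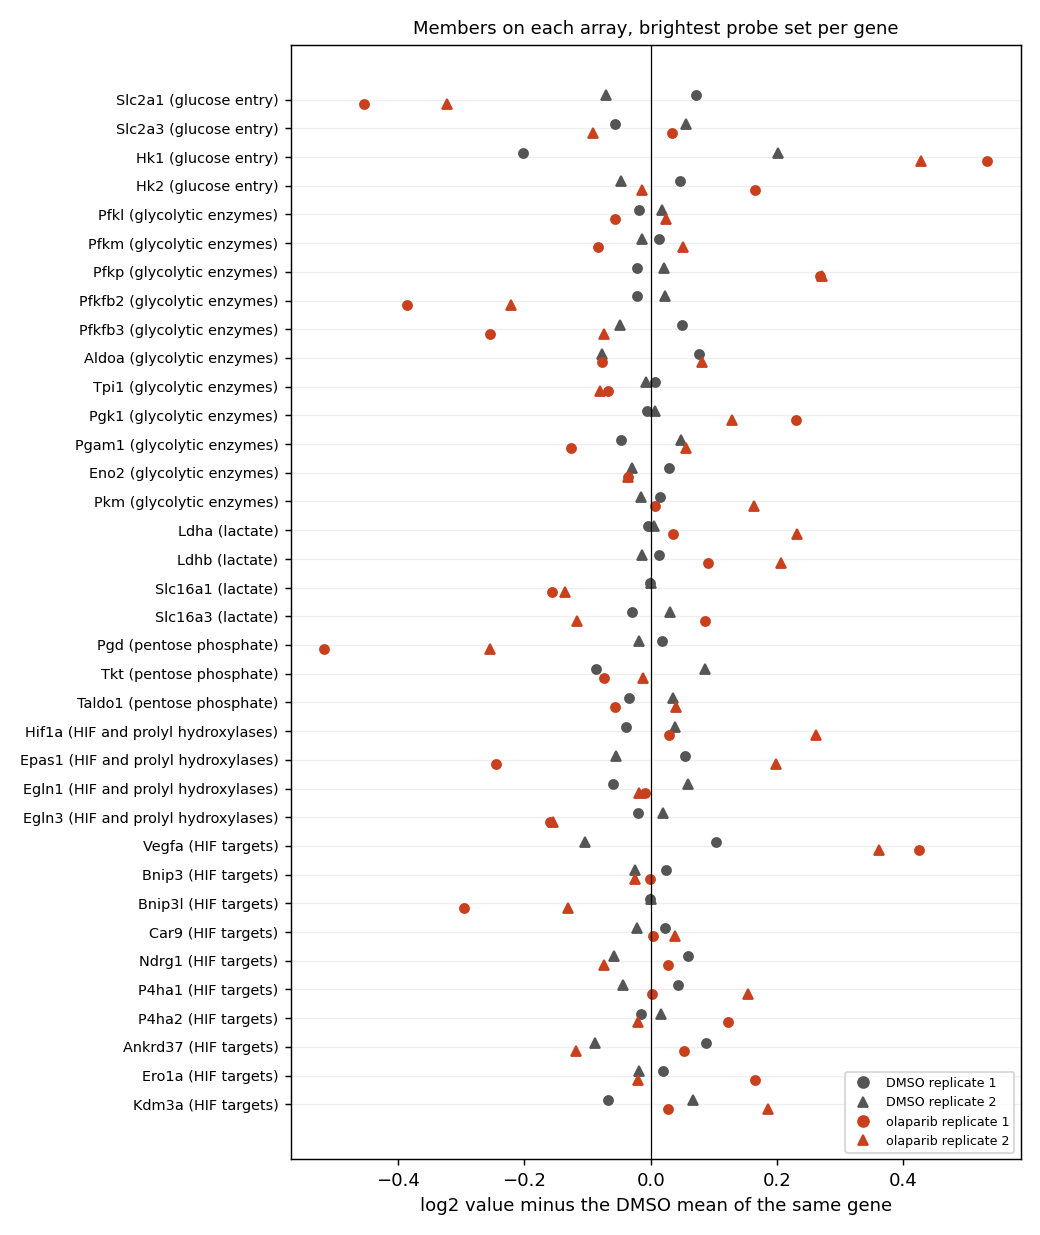
Each row is a member, labelled with its role, and each point is 1 array, placed by its log2 value minus the DMSO mean of that gene. Slc2a1, Pgd and Pfkfb2 on the olaparib arrays lie left of both DMSO arrays, Vegfa, Hk1 and Pfkp lie right of them, and the arrays of most other members mix or lie close together.

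Glucose entry held the transporter gene Slc2a1, which encodes GLUT1, the main glucose carrier of glia and of the blood-brain barrier. Slc2a1 had log2 values of 9.51 and 9.36 on the DMSO arrays and 8.98 and 9.11 on the olaparib arrays. Both olaparib arrays lay below both DMSO arrays. The transcript fell by 0.39 on the log2 scale (SE 0.11), a 1.31-fold difference (limma adjusted p = 0.0411). Slc2a3 encodes GLUT3, the carrier of neurons. Its difference was -0.03 (95% interval -0.20 to 0.14), and the arrays of both groups overlapped.

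Hexokinases carry out the trapping step. Hk2, the inducible form, differed by 0.08 (95% interval -0.10 to 0.25), at a DMSO mean of 6.47 that lies within the background range. Hk1, the constitutive form of brain, had 2 probe sets that named it alone, and they disagreed.

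The brighter Hk1 probe set read 10.62 and 11.03 with DMSO and 11.36 and 11.25 with olaparib. Both olaparib arrays were above both DMSO arrays, and the value rose by 0.48 (SE 0.14, limma adjusted p = 0.0369). The other Hk1 probe set read 8.41 and 8.31 with DMSO and 8.23 and 8.46 with olaparib. There the groups overlapped and the difference was -0.01 (95% interval -0.23 to 0.20; limma adjusted p = 0.981).

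The annotation behind the 2 sets also differed. The dimmer set was matched to Hk1 through 8 sequence records, 4 of them RefSeq transcripts. The brighter set was matched through 1 record, which is no RefSeq transcript. That same record also stood in all 15 probe sets that named Hk1 together with other genes. All 15 named Rpl17 as well, which encodes a protein of the large ribosomal subunit, and 0 of them held an Hk1 RefSeq transcript. Their changes ran from -0.16 to 0.54 with a median of 0.24, and 14 of 15 were above 0. These sets share a sequence record, so they are not independent measurements.

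Probe set numbers largely follow genome position, which gives a further check. Hk1 lies on chromosome 10, as did all 20 single-gene probe sets numbered nearest to the dimmer set. The 20 numbered nearest to the brighter set all named genes of chromosome 14. The rise of 0.48 is therefore a value of the brighter probe set, and whether it reports Hk1 transcripts was not tested. With every gene read from a set of its own chromosome where it had one, 4 of the 34 members tested passed. Vegfa was higher, and Slc2a1, Pgd and Pfkfb2 were lower. Of all genes tested in that fit, 6.03% passed.

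**Figure D2:**
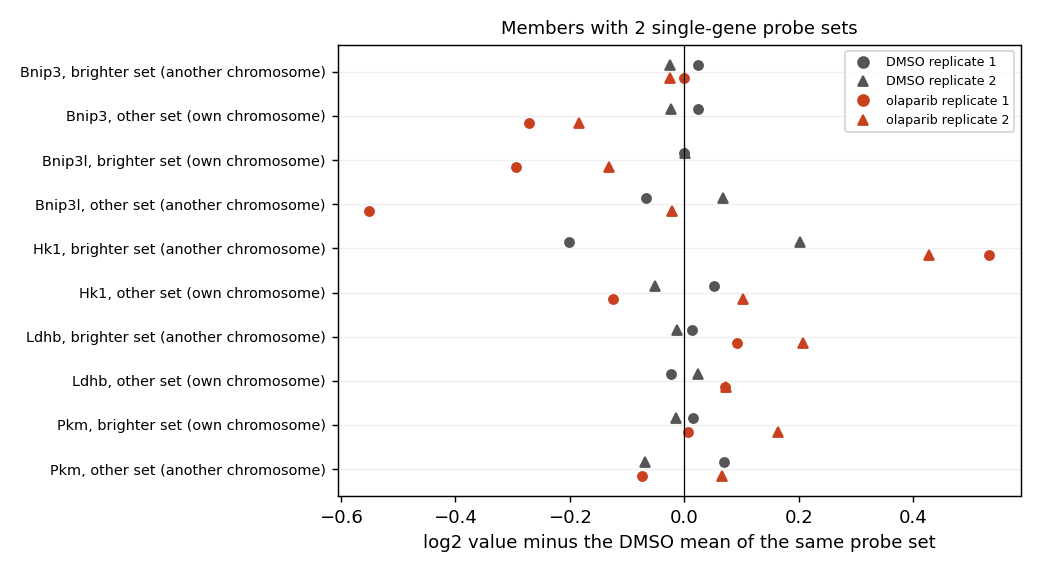
Each row is 1 probe set of the 5 members that had 2 sets naming them alone, and each point is 1 array, placed by its log2 value minus the DMSO mean of that set. Row labels say whether the nearest-numbered sets named genes of the member's own chromosome. The 2 rows of Hk1 and the 2 rows of Bnip3 differ: the brighter Hk1 set moves right with olaparib and the other does not, and only the dimmer Bnip3 set moves left.

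Of the glycolytic enzymes, 11 of the 14 listed were tested. Of these 1 fell, 0 rose and 10 did not pass, with a median change of -0.02. Pfkfb2 makes the bifunctional enzyme that sets fructose 2,6-bisphosphate, the activator of phosphofructokinase. It read 7.55 and 7.59 with DMSO and 7.18 and 7.35 with olaparib, so both olaparib arrays were lower. Pfkfb2 fell by 0.30 (SE 0.08), a 1.23-fold difference (limma adjusted p = 0.0324). Pfkfb3, its inducible relative, differed by -0.16 (SE 0.10, limma adjusted p = 0.400), from 8.27 and 8.18 to 7.97 and 8.15.

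The 3 phosphofructokinase genes encode subunits of the committing enzyme. Pfkp, the platelet-type subunit, read 7.43 and 7.48 with DMSO and 7.72 and 7.73 with olaparib. Both olaparib arrays were higher and nearly equal. The difference was 0.27 (SE 0.08), just short of the threshold (limma adjusted p = 0.0562). It passed in 7 of 16 alternatives, whose adjusted p ranged from 0.0226 to 0.539. The liver-type Pfkl and muscle-type Pfkm each differed by -0.02, and their arrays overlapped.

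No gene of the later steps passed. Pgk1, which makes the first ATP of the pathway, differed by 0.18 (95% interval -0.07 to 0.43), and its olaparib values of 11.35 and 11.25 lay above its DMSO values of 11.11 and 11.13. Aldoa, the aldolase, differed by 0.0022 (95% interval -0.26 to 0.26). The triose phosphate isomerase gene Tpi1 differed by -0.07, Pgam1, the phosphoglycerate mutase, by -0.04, and Eno2, the neuronal enolase, by -0.04. The mean of Eno2 lay within the background range. The Pgam1 set was numbered among genes of chromosome 7, while Pgam1 lies on chromosome 19. Pkm, the pyruvate kinase of the last step, differed by 0.09 on its brighter probe set and -0.0038 on the other. That other set was numbered among genes of chromosome 5, while Pkm lies on chromosome 9. The interval of Pgk1 reaches past the sizes called in Slc2a1 and Pfkfb2, so equal levels are not shown.

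Of the lactate genes, 0 of 4 passed, with 0 at an unadjusted p under 0.05 and a median change of 0.06. Slc16a1 encodes MCT1, a carrier that moves lactate across the membrane. It had the smallest p of this role, at 7.55 and 7.55 with DMSO and 7.39 and 7.41 with olaparib. Both olaparib arrays were lower, with a difference of -0.15 (SE 0.08, limma adjusted p = 0.349). Ldha, the lactate dehydrogenase subunit that favours lactate production, differed by 0.13 (95% interval -0.10 to 0.37), and its olaparib values of 9.27 and 9.47 lay above its DMSO values of 9.23 and 9.24. Ldhb, the other subunit, differed by 0.15 on its brighter set and by 0.07 on the set numbered among genes of its own chromosome. Slc16a3, the lactate exporter MCT4, lay within the background range and differed by -0.01.

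In the pentose phosphate branch, 3 of the 4 listed genes were tested. Of these 1 fell and 2 did not pass. Pgd encodes 6-phosphogluconate dehydrogenase, an enzyme that makes NADPH. Its values were 9.30 and 9.26 with DMSO and 8.76 and 9.02 with olaparib. Both olaparib arrays were lower, the first by more than the second. Pgd fell by 0.39 (SE 0.11), a 1.31-fold difference (limma adjusted p = 0.0470). Tkt and Taldo1, which shuffle sugars in the later part of the branch, differed by -0.04 (95% interval -0.29 to 0.20) and -0.0081 (95% interval -0.24 to 0.22), with overlapping arrays.

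The factors that control the hypoxia response gave 0 calls among 4 genes in limma, with 0 at an unadjusted p under 0.05. Hif1a, the widely expressed oxygen-labile subunit, differed by 0.15 (95% interval -0.08 to 0.37). Epas1, which encodes HIF-2 alpha, differed by -0.02, and its olaparib arrays stood far apart at 8.45 and 8.89. Its DMSO values of 8.75 and 8.64 lay between these. Egln1, the main prolyl hydroxylase, differed by -0.01 (95% interval -0.23 to 0.20). Egln3 is a prolyl hydroxylase that is itself a HIF target. It read 7.92 and 7.96 with DMSO and 7.78 and 7.79 with olaparib, a difference of -0.16 (SE 0.09, limma adjusted p = 0.354). HIF is controlled largely through protein stability, which these arrays do not measure.

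Among the 10 HIF targets, 8 were tested, of which 1 rose, 0 fell and 7 did not pass, with a median change of 0.03. Vegfa, the secreted growth factor of blood vessels, was the member that rose. It read 7.70 and 7.49 with DMSO and 8.02 and 7.96 with olaparib. Both olaparib arrays lay above both DMSO arrays. Vegfa rose by 0.39 (SE 0.09), a 1.31-fold difference (limma adjusted p = 0.0124), the smallest adjusted p of the 34 members.

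The remaining HIF targets did not pass in either direction. Kdm3a, a histone demethylase, differed by 0.11 (95% interval -0.10 to 0.31), P4ha1, a collagen prolyl hydroxylase subunit, by 0.08 and Ero1a, an oxidase of the endoplasmic reticulum, by 0.07. Ndrg1 differed by -0.02 and Ankrd37 by -0.03, both with a mean within the background range. Car9, the cell surface carbonic anhydrase often used as a hypoxia marker, read 6.24 and 6.20 with DMSO and 6.23 and 6.26 with olaparib. Car9 and P4ha2 lay under the floor and were not tested, and their arrays of both groups overlapped.

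Bnip3 and Bnip3l encode mitochondrial proteins that mark mitochondria for autophagy. The brighter Bnip3 set read 8.51 and 8.46 with DMSO and 8.48 and 8.46 with olaparib, a difference of -0.01. All 20 sets numbered nearest to it named genes of chromosome 14, while Bnip3 lies on chromosome 7. The dimmer set, numbered among genes of chromosome 7, read 8.53 and 8.48 with DMSO and 8.23 and 8.32 with olaparib. That is a difference of -0.23 (SE 0.10, limma unadjusted p = 0.0294, adjusted p = 0.196), which did not pass. Bnip3l differed by -0.21 (SE 0.12, limma adjusted p = 0.353) on its brighter set, from 10.29 on both DMSO arrays to 10.00 and 10.16. The other Bnip3l set, numbered among genes of chromosome 12, read 9.32 and 9.45 with DMSO and 8.84 and 9.36 with olaparib, so its groups overlapped. On the set of their own chromosome both genes lay lower on both olaparib arrays, in the opposite direction to Vegfa, without passing the test. Among all genes tested, the groups of arrays did not overlap in 47.1%.

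**Figure D3:**
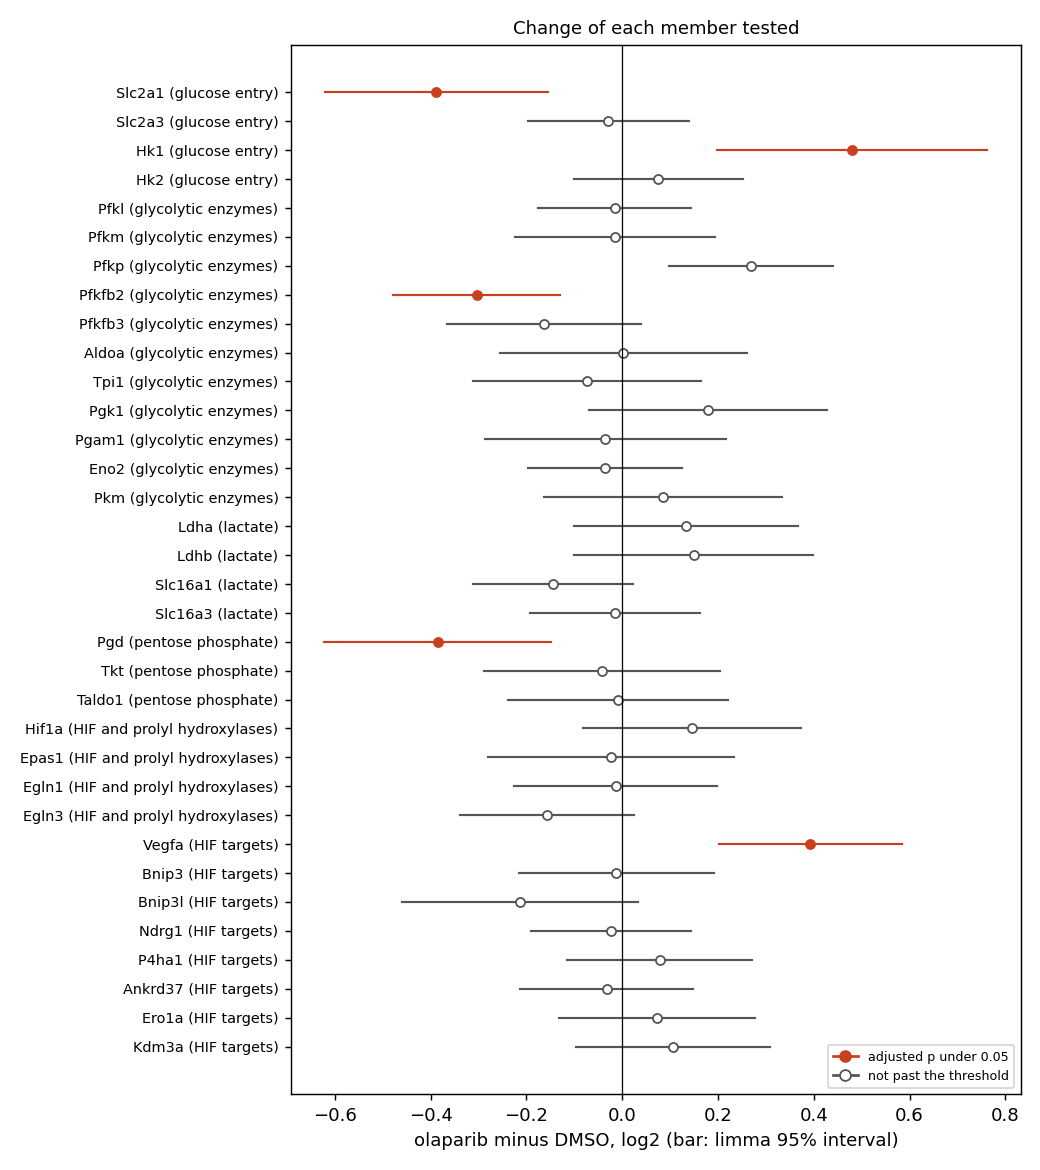
Each row is 1 of the 34 members tested, the point is the olaparib minus DMSO difference on the log2 scale and the bar is limma's 95% interval. Filled red points passed an adjusted p of 0.05: Hk1 (brighter set) and Vegfa to the right of 0, Slc2a1, Pgd and Pfkfb2 to the left.

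By role, the median changes were 0.02 for glucose entry, -0.02 for glycolytic enzymes, 0.06 for lactate genes, -0.04 for the pentose phosphate branch, -0.02 for HIF and its hydroxylases and 0.03 for HIF targets. Between arrays of the same group, the role medians varied with an SD of 0.03 (lactate) to 0.08 (glucose entry). The medians of glucose entry, glycolytic enzymes, the pentose phosphate branch, the HIF factors and HIF targets changed sign when 1 array was left out, so their direction is not settled. For lactate the median stayed between 0.042 and 0.076, but 2 of its 4 genes lay above 0 and 2 below. No shared direction of the lactate genes is shown.

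The 5 calls depend on the settings of the fit, and 4 arrays leave the variance estimate weak. Fitting all probe sets changed both the variance prior (5.25 degrees of freedom, against 18.1) and the rows adjusted over. The part of each was not tested. With all 21704 probe sets above the floor in the limma fit, 0 of the 5 passed, with adjusted p of 0.171 for Vegfa, 0.206 for Slc2a1, 0.216 for Pfkfb2, 0.236 for Pgd and 0.247 for Hk1 and 14 of 21704 rows (0.0645%) called in all. Calls were lost without DMSO replicate 1 for Slc2a1 (adjusted p = 0.705), Hk1 (0.908), Pfkfb2 (0.163) and Pgd (0.512). They were lost without DMSO replicate 2 for these genes (0.258, 0.0641, 0.278 and 0.348) and for Vegfa (0.396), and without olaparib replicate 1 for Pfkfb2 (0.0941) and Pgd (0.0676). Slc2a1, Hk1, Pfkfb2 and Pgd also missed the threshold without a filter (0.0635, 0.0903, 0.0877 and 0.0760) and with median centring (0.147, 0.0536, 0.0533 and 0.138). Pfkfb2 missed it without a variance trend (0.0593), and Hk1 with the mean of its probe sets (0.265). Leaving out 1 array could not turn the sign of these 5 changes, since the groups of arrays do not overlap in these genes. The change then ran from -0.32 to -0.46 for Slc2a1, -0.22 to -0.39 for Pfkfb2 and -0.25 to -0.52 for Pgd. It ran from 0.29 to 0.50 for Vegfa and from 0.28 to 0.68 for the brighter Hk1 set.

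Some markers of cell identity differed between the same arrays. For comparison, 3.37% of all genes tested fell and 2.84% rose. Of 5 neuroblast markers tested 2 fell, Dcx by 1.05 and Map2 by 0.55, and the summed linear value of the 6 measured ran from 3367 to 3566 with DMSO and from 2318 to 2660 with olaparib. Of the 8 stem and progenitor markers 1 fell, the astrocyte filament gene Gfap by 1.03, and their sum ran from 18275 to 19174 with DMSO and from 17043 to 18678 with olaparib. The call of Map2 was lost without DMSO replicate 1 (limma adjusted p = 0.120), without DMSO replicate 2 (0.317) and with all probe sets in the fit (0.162), and that of Gfap with all probe sets (0.0658), while Dcx passed in all 16 alternatives. Of 3 endothelial and fibroblast markers above the floor, 0 passed in limma, with 1 at an unadjusted p under 0.05. The 5 oligodendrocyte and 3 microglia markers above the floor also gave 0 calls, each list with 1 at that p. At that unadjusted p lay 4 of the 5 neuroblast markers, all lower, and 3 of the 8 stem and progenitor markers. Of these 3, Gfap and Slc1a3 were lower and Nes was higher. Among all genes tested, 19.1% had such a p. The part of a shifted cell makeup in the changes of Slc2a1, Pgd, Pfkfb2 and Vegfa was not tested.

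Other genes of these pathways came from lists of 45 genes of sugar metabolism and 46 of the hypoxia response. Of 67 tested, 3 rose, 2 fell and 62 did not pass, or 7.46% against 6.22% of all genes tested. The median change was -0.0019. Mpc1, a subunit of the carrier that takes pyruvate into mitochondria, read 9.29 and 9.44 with DMSO and 9.88 and 9.95 with olaparib. It rose by 0.55 (SE 0.11, limma adjusted p = 0.00588), the largest rise of the 67. Slc2a13, a transporter of myo-inositol in the same family as the glucose carriers, fell by 0.39 (SE 0.10, limma adjusted p = 0.0153), from 7.80 and 7.70 to 7.50 and 7.21.

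In the hypoxia list the called genes moved in both directions. Plod1, a lysyl hydroxylase that modifies collagen, read 8.16 and 8.30 with DMSO and 7.53 and 7.57 with olaparib. It fell by 0.68 (SE 0.09), a 1.60-fold difference (limma adjusted p = 8.2e-05), and passed in 15 of its 16 alternatives, with 0.0576 when all probe sets shared the fit. Adm, which encodes the vasodilator peptide adrenomedullin, rose by 0.34 (SE 0.08, limma adjusted p = 0.0125), from 6.67 and 6.76, near background, to 7.13 and 6.99. Bhlhe40, a transcriptional repressor, rose by 0.39 (SE 0.10, limma adjusted p = 0.0160). The calls of Mpc1, Slc2a13, Adm and Bhlhe40 were lost without DMSO replicate 1 (limma adjusted p = 0.352, 0.145, 0.231 and 0.079). Those of Mpc1 and Bhlhe40 were also lost without DMSO replicate 2 (0.0779 and 0.272), and that of Slc2a13 without olaparib replicate 2 (0.0773) and without a filter (0.0511). With all probe sets in the fit none of these 4 passed (0.116, 0.207, 0.169 and 0.183).

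**Figure D4:**
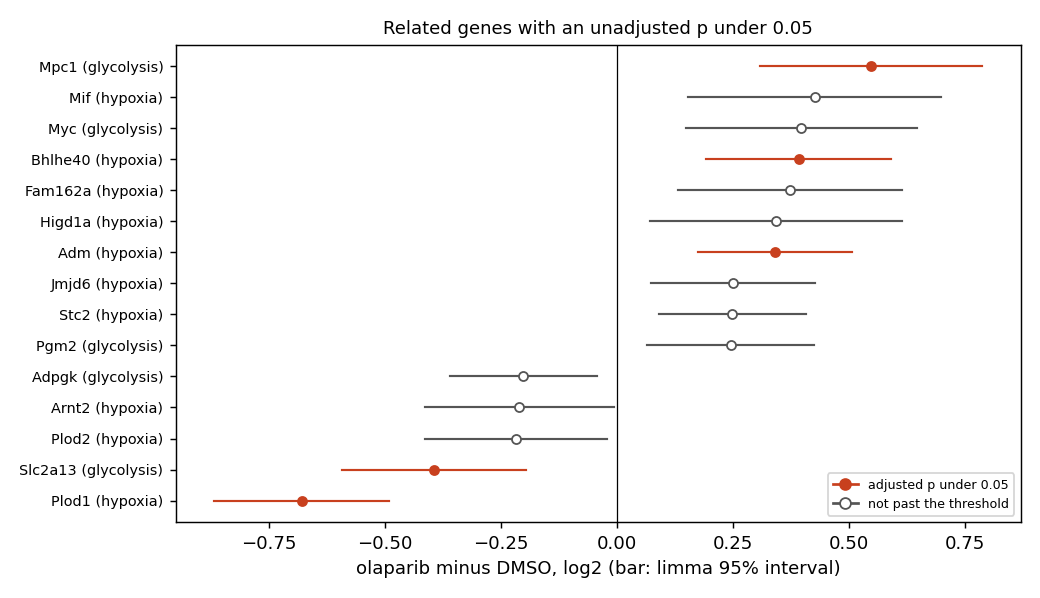
Each row is 1 of the 15 related genes with an unadjusted p under 0.05 out of 67 tested, chosen by that p. The point is the olaparib minus DMSO difference on the log2 scale and the bar is limma's 95% interval. Mpc1, Bhlhe40 and Adm (filled red, right) rose and Slc2a13 and Plod1 (filled red, left) fell at an adjusted p under 0.05, and the other 10 did not pass.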

How the data were processed

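Amplified, biotin-labelled total RNA (40 ng) of each sample was hybridised to 1 Affymetrix array, per the labels' protocols. The deposited table holds the log2 values of the authors for 34760 probe sets. Their background correction, normalization and summarisation are not given in the sources used here. The platform annotation named 1 gene for 21640 probe sets, and 19855 of 19937 genes matched the RefSeq table of GRCm38.p6.

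Each gene was represented by its brightest single-gene probe set, and the test covered genes whose mean exceeded the 30th percentile (6.42). Differences (olaparib minus DMSO) were tested two-sided with limma 3.58.1 (lmFit, then eBayes with a variance trend; R 4.3.3), and p-values were adjusted by the Benjamini-Hochberg method over the 13956 genes, at a threshold of 0.05. Every adjusted p comes from limma. The arrays within a group are labelled biological replicates, with no separate cultures or animals named, so p-values measure the spread between these samples. For each gene that spread is taken mostly from all genes. The variance prior had 18.1 degrees of freedom, against 2 residual ones. On simulated data for this comparison (13956 genes), 53.6% of genes changed by 1.3-fold and 96.3% of those changed by 1.5-fold were recovered. The simulated noise was independent and normal, with variances drawn from the prior of the same fit. The assumptions of the fit thus held, and the shares on the real arrays were not tested.

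Values of all arrays are given for members past the threshold and for the smallest p in each role, and related genes past the threshold are named. Values given for other members were chosen after they were seen. The members and lists were chosen with earlier results of these data known. For the check of probe set numbers, the 10 single-gene sets on either side were used. Alternatives covered the filter, normalization, variance prior, array weights, probe set choice, each array left out and the replicate number as a block. Plots were made in matplotlib 3.10.9 (Python 3.11.15).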

Additional observations from a re-analysis of the deposited data

How the results depend on the processing

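Of the 16 members whose change had opposite signs under some alternative, the brighter Hk1 set was the 1 past the threshold. With the probe set numbered among genes of its own chromosome, an alternative chosen after seeing the data, the change of Hk1 was -0.012, since another probe set is then read. Aldoa differed by -0.076 under cyclic loess and by -0.079 under quantile normalization, and with median centring Taldo1 differed by 0.0065, Egln1 by 0.0009 and Bnip3 by 0.0019. Slc2a1, Pgd, Pfkfb2 and Vegfa kept their direction under every alternative run, but most of these could not have turned it. Their groups of arrays do not overlap, so leaving out 1 array could not. Each had 1 single-gene probe set, and the filter and variance settings leave the difference unchanged. Without a filter, and also with median centring, 1 member rose (Vegfa) and 0 fell. Averaging the probe sets of a gene, or taking those of its own chromosome, also left 1 riser. With all probe sets sharing the fit 0 members rose, 0 fell, and 1 gene rose and 11 fell in all. Over all genes, 257 rose without a filter and 719 fell under cyclic loess. The lactate median was 0.031 under cyclic loess, 0.020 under quantile normalization, 0.13 with a filter at the 50th percentile and 0.029 with sets of the own chromosome, and the HIF target median was 0.075 with that filter. For these shifts the cause was not tested.

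Leaving out 1 array gave 0 to 3 members higher and 0 to 4 lower, and 97 to 1274 genes higher and 161 to 1032 lower in all. The spread then comes from the other group alone, whose median SD was 0.048 (DMSO) or 0.077 (olaparib). Role medians ran from -0.052 to 0.099 (glucose entry), -0.068 to 0.051 (glycolytic enzymes), 0.042 to 0.076 (lactate), -0.13 to 0.027 (pentose phosphate), -0.084 to 0.090 (HIF and hydroxylases) and -0.022 to 0.047 (HIF targets). The changes of members not past the threshold that turned sign ran from -0.091 to 0.034 for Slc2a3, -0.013 to 0.16 for Hk2, -0.057 to 0.025 for Pfkl, -0.083 to 0.051 for Pfkm, -0.077 to 0.081 for Aldoa, -0.13 to 0.056 for Pgam1, -0.12 to 0.086 for Slc16a3, -0.13 to 0.043 for Tkt, -0.056 to 0.040 for Taldo1, -0.25 to 0.20 for Epas1, -0.073 to 0.046 for Egln1, -0.037 to 0.012 for Bnip3, -0.082 to 0.036 for Ndrg1, -0.12 to 0.056 for Ankrd37 and -0.020 to 0.17 for Ero1a.

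In each group the labels call 1 array a replicate of the array numbered 1, and nothing in them says that the numbers pair cultures across groups. Over the 13956 genes, the differences between the first and second array correlated at 0.168 between the groups. With the replicate number as a block, a fit added after seeing the data that leaves 1 residual degree of freedom, 761 genes rose and 854 fell. In it 3 members rose (Vegfa, Hk1 and Pfkp, with Pfkp at an adjusted p of 0.0226) and 3 fell (Slc2a1, Pgd and Pfkfb2). The variance prior of that fit had infinite degrees of freedom, so its p-values take the spread wholly from all genes. Of the 36 members measured, 7 had a mean within the range of genes from unrelated tissues (highest 6.74), so little can be said of their changes. With 2 residual degrees of freedom the test recovered 53.6% of 1.3-fold changes simulated from its own variance prior, so changes of that size can be missed.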

Other observations

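The disagreement of probe set numbers and gene location seen for Hk1 was counted over the whole table. Of 13916 genes tested with a known chromosome, 245 were read from a probe set whose nearest-numbered sets named mostly genes of another chromosome, among them the members Hk1, Pgam1, Ldhb and Bnip3. Of the 245, 13 rose and 3 fell in limma, and 6.53% were past the threshold against 6.22% of the other genes. Their median change was 0.09 on the log2 scale, against 0.0005 for the others. Reading genes from the set of their own chromosome where they had one, which changed the set of 197 genes, gave 841 genes past the threshold of 13947 tested (6.03%). What the sets numbered among another chromosome measure was not tested.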
